A study of Mus musculus with 16 samples.

Results

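The IL-7 and gamma-chain receptor signalling genes described here are 10 genes chosen by their symbols. They are the receptor chains Il7r, Il2ra and Il2rg, the kinases Jak1 and Jak3, the transcription factors Stat5a and Stat5b, and the feedback inhibitors Socs1, Socs3 and Cish. All 10 are among the 22114 genes of both count tables, and all 10 had enough reads to be tested in both. RNA was sequenced from sorted DN3 thymocytes (CD4-CD8-CD25+CD44-) of C57BL/6 mice (C57BL/6J in the study's methods), with each library made from a pool of mice. In the label-retention experiment the mice carried TetOP-H2B-GFP KI/+ together with an Lmo2 transgene (Lmo2Tg). They received doxycycline for 6 weeks and were left without it for 2 weeks, and their DN3 cells were then sorted into those that kept the histone-bound GFP (GFPhi, 3 libraries) and those that had diluted it by dividing (GFPlo, 3 libraries), so all 6 of these libraries carry the oncogene. In the genotype experiment, total DN3 cells came from 6-week-old wild-type mice (WT, 3 libraries), p21-/- mice (2 libraries), Lmo2Tg mice (2 libraries, called a and b here because their numbers do not name single samples) and Lmo2Tg p21-/- mice (2 libraries). Lmo2Tg is the CD2-Lmo2 transgene, in which CD2 control elements drive Lmo2 in T cells, and p21-/- mice lack the cell-cycle inhibitor p21 (Cdkn1a) throughout the body. The comparisons ask which genes separate cells with restricted cycling from their dividing counterparts, and what the oncogene and the loss of p21 change in DN3 cells.

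IL-7, made by thymic stroma, binds a receptor built from the IL-7 receptor alpha chain (Il7r) and the common gamma chain (Il2rg), which brings the kinases JAK1 and JAK3 together. The kinases phosphorylate STAT5A and STAT5B, which move to the nucleus and switch on genes of survival and growth and also Cish and members of the Socs family, whose products damp the receptor in turn. In the thymus this signal keeps early progenitors alive and dividing up to the DN3 stage. Il2ra encodes CD25, the alpha chain of the IL-2 receptor, which is the surface marker that defines DN3 cells. Because CD25 was part of the sorting gate, the level of Il2ra is not independent of how the cells of any group were chosen.

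STAT5 binds the palindrome TTCNNNGAA, which reads the same on both strands. It was searched in RefSeq windows of 300 bases around annotated gene starts (GRCm38.p6), where it occurs in 8.3% of 32851 windows of all genes and in 3 of the 12 windows that belong to the members. The 3 windows with a match, those of Cish, Socs3 and Il7r, are shown because STAT5 is the factor that the members' signal activates, whereas the windows of Il2ra, Jak1 and Stat5a, the members called in GFPhi cells below, hold none. The Cish window holds a pair of motifs at chr9:107296654-107296683 on the plus strand, with starts 0 and 11 bases from the RefSeq gene start. The Socs3 motif lies at chr11:117969507-117969525 on the minus strand, 154 bases before the RefSeq start, and the Il7r motif at chr15:9530005-9530023 on the minus strand, 142 bases before the RefSeq start. GENCODE M21, which gave the gene extents used below, places the starts of these genes further upstream, so that by it the motifs of Cish, Socs3 and Il7r begin 633, 527 and 158 bases after the start. Capitals mark the fixed letters of the motif, and a match is a description of these letters only.
Cish: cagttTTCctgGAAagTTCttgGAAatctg
Socs3: cagccTTCttaGAAgggag
Il7r: ggagcTTCaggGAAtacca

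Total counts ranged from 26861394 to 31106213 in the label-retention libraries and from 13864936 to 16837667 in the genotype libraries. Values per gene are CPM, read counts scaled by each library's size after TMM. Differences were tested in edgeR by quasi-likelihood, with p-values adjusted by Benjamini-Hochberg over all genes tested and genes called at an adjusted p under 0.05. GFPhi replicate 3 stood apart from its group, with 285 CPM of Lmo2 beside 53.8 and 29.5 in GFPhi replicates 1 and 2, and with 6.56 CPM of Cdkn1a beside 35.8 and 29.9. The tests of the members in GFPhi cells are therefore also given without it. Cdkn1a was at 36.5 to 49.0 CPM in WT, 14.3 and 17.7 in p21-/-, 32.8 and 26.3 in Lmo2Tg and 4.35 and 3.50 in Lmo2Tg p21-/- libraries, so it was lower in the libraries labelled p21-/- and not at 0. The 7 DN3 markers checked (Ptcra, Rag1, Rag2, Il2ra, Cd3e, Notch1 and Dtx1) summed to between 4110 and 6820 CPM in every library, a sum in which Il2ra and Notch1 weigh most. Of these 7, 5 were lower in both Lmo2Tg libraries than in any WT library and 2 were higher (Notch1 and Dtx1). Ptcra, for example, was at 134 to 186 CPM in WT and at 26.0 and 55.7 in Lmo2Tg, Rag1 at 1180 to 1285 and at 538 and 625, and Rag2 at 62.0 to 84.9 and at 14.3 and 14.4 CPM. The 4 genes low in DN3 cells (Cd44, Cd4, Cd8a and Cd8b1) summed to 32.7 to 34.6 CPM in WT, 73.0 to 81.2 in Lmo2Tg, 113 to 124 in GFPlo and 48.6 to 158 in GFPhi libraries. The B-cell markers Cd79a, Ms4a1, Pax5 and Ebf1 were each higher in every GFPhi than in any GFPlo library and summed to 4.78, 18.7 and 6.26 CPM in GFPhi replicates 1 to 3 against 0.259, 0.349 and 0.419 CPM in GFPlo replicates 1 to 3, with Ms4a1 at 51, 222 and 60 counts against 0, 0 and 1, whereas Cd79b, another B-cell marker, was at 19.4 to 27.6 CPM in all 6. Foxp3 and Ctla4, of 3 markers of regulatory T cells, and Epcam, of 4 of thymic epithelium, were also higher in every GFPhi library, and the sum of the former list was 16.7 to 49.5 CPM in GFPhi and 21.1 to 22.0 in GFPlo and that of the latter 36.9 to 79.6 and 15.9 to 22.9. The part of these markers in the comparisons below was not tested. The myeloid list summed to at most 27.4 CPM in any library. Kit, Flt3 and Spi1, markers of early progenitors and DN2 cells, summed to 341 to 383 CPM in GFPlo, 142 to 200 in GFPhi, 65.3 to 87.9 in WT, 76.4 to 80.3 in p21-/-, 142 to 210 in Lmo2Tg and 214 to 283 in Lmo2Tg p21-/- libraries. This sum moves with the comparisons below, except p21-/- against WT, where it overlaps. Of the list, Kit alone was lower in every GFPhi library, Kit and Spi1 were higher in Lmo2Tg than in WT libraries, and Kit alone was higher in Lmo2Tg p21-/- than in Lmo2Tg libraries. The part of the list in the comparisons was not tested. In RNA from bulk samples, fewer cells of a type and less RNA per cell cannot be told apart.

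Levels of different genes were compared per kb of exon. Il2ra was the most abundant member in every group, from 262 CPM per kb in Lmo2Tg to 465 in GFPhi. Cish had the lowest mean, from 1.26 CPM per kb in Lmo2Tg to 8.36 in GFPhi, where its range overlapped that of Socs1. In WT cells Jak1 (61.3 CPM per kb) and Stat5b (57.1) came next with overlapping ranges, followed by Il2rg (37.6), Stat5a (35.9) and Il7r (35.0), of which neighbours overlapped, and then by Socs3 (15.9), Jak3 (12.4) and Socs1 (11.7). In Lmo2Tg cells Stat5b (88.8 CPM per kb) stood above Stat5a (59.9) and Jak1 (59.3), whose ranges overlapped, and Il7r (21.3) overlapped Socs3 (19.45). GFPlo cells had the most Stat5a, with 84.7 CPM per kb, overlapping Stat5b at 91.35. The label-retention and genotype tables were scaled apart, so levels are not tested across them.

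In GFPhi cells, compared with GFPlo cells, transcripts of Il2ra and of the receptor-bound kinase Jak1 were higher and transcripts of Stat5a were lower. These 3 of the 10 members were called, beside 14.9% of the 11581 genes tested. Of all genes, 5.37% were called higher and 9.49% lower, against 2 and 1 of the members. For 6 of the 10 members the GFPhi and GFPlo libraries did not overlap, beside 41.3% of all genes, and for 7 without GFPhi replicate 3, beside 65.6%. The median log2 fold change of the members was 0.28, beside 0.02 for all genes, and 0.29 beside 0.01 without that library. B-cell markers and Kit, of the progenitor list, also move with this comparison, as given above.

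Among the receptor chains, Il7r was at 138, 86.2 and 160 CPM in GFPhi replicates 1 to 3 and at 191, 203 and 218 CPM in GFPlo replicates 1 to 3. Every GFPhi library lay below every GFPlo library. The log2 difference was -0.67 (SE 0.22, edgeR adjusted p = 0.0913), which did not pass the threshold over the 6 libraries, whereas it did without GFPhi replicate 3 (-0.86, SE 0.18, adjusted p = 0.0101). Il2ra was at 2458, 2287 and 3225 CPM in GFPhi and at 1654, 1563 and 1761 CPM in GFPlo libraries. All GFPhi values were higher, with replicate 3 the highest, and the log2 difference was 0.68 (SE 0.14, edgeR adjusted p = 0.0294) over the 6 libraries and 0.52 without GFPhi replicate 3 (adjusted p = 0.0019). Il2rg, the chain shared by the receptors of the family, had 199, 186 and 166 CPM in GFPhi and 179, 155 and 145 CPM in GFPlo libraries, which overlap. Its log2 difference was 0.20 (SE 0.11, edgeR adjusted p = 0.234), and 0.27 without GFPhi replicate 3 (adjusted p = 0.0489). Of the 50-base stretches of Il2rg transcripts, 27.5% also occur in other genes, among them Gm20489, which overlaps it on its strand, so its counts are uncertain.

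**Figure D1:**
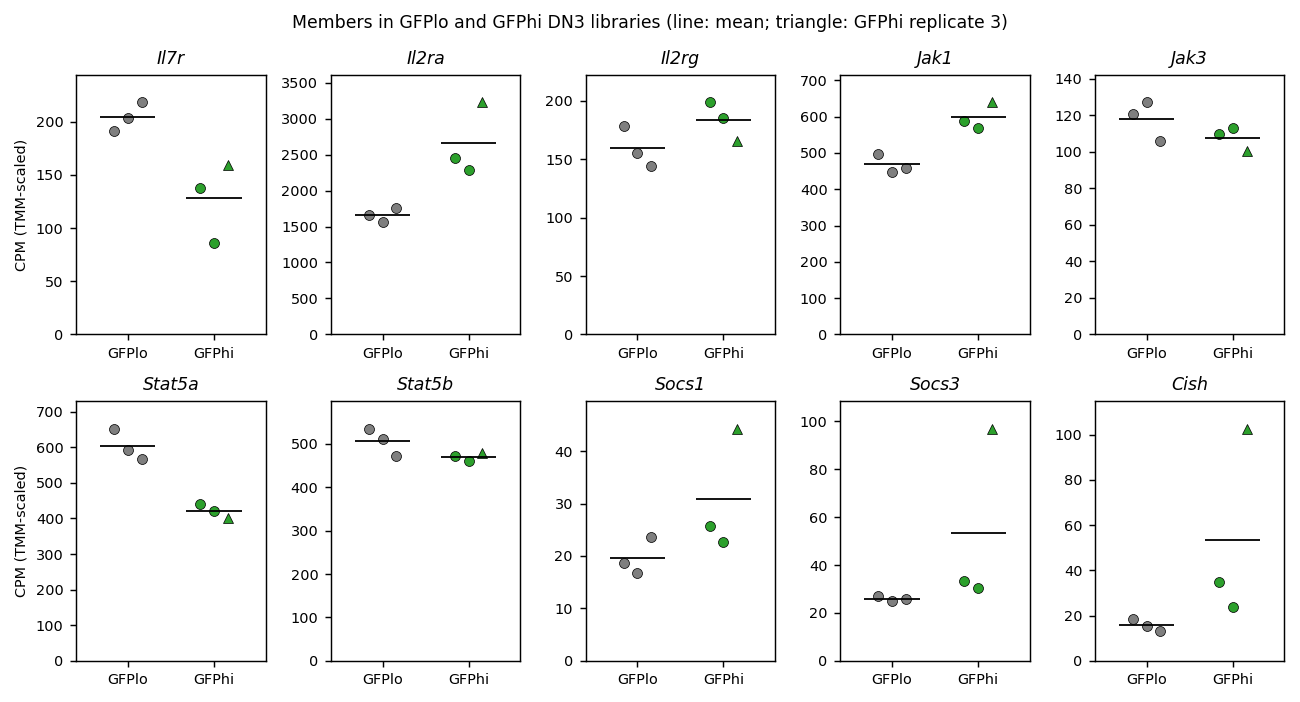
CPM of each member (vertical axes, from 0) in the 3 GFPlo (grey) and 3 GFPhi (green) libraries, with a line at each group's mean. Il2ra and Jak1 sit higher and Stat5a sits lower in all GFPhi libraries, and the triangle of GFPhi replicate 3 is far above the other GFPhi points for Cish, at 103 CPM, and for Socs3, at 97.0 CPM.

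Jak1 was at 589, 570 and 639 CPM in GFPhi and at 498, 448 and 459 CPM in GFPlo libraries, again without overlap. Its exons overlap those of Raver2 on the other strand, which had a log2 difference of 1.95 (edgeR adjusted p = 0.068, and 2.30 without GFPhi replicate 3, adjusted p = 0.005), and reads of the pair cannot be told apart if counting ignored strand. The log2 difference of Jak1 was 0.36 (SE 0.07, edgeR adjusted p = 0.0288), and 0.31 without GFPhi replicate 3 (adjusted p = 0.0077). Jak3, the kinase that binds the gamma chain, had 110, 113 and 100 CPM in GFPhi and 121, 127 and 106 CPM in GFPlo libraries. These ranges overlap, and the log2 difference was -0.13 (95% interval -0.34 to 0.08), and -0.07 without GFPhi replicate 3. Within a library the ratio of Jak3 to Jak1 CPM was 0.181 ± 0.0215 (SD, n = 3) in GFPhi and 0.252 ± 0.0278 (SD, n = 3) in GFPlo, with no overlap (two-sided exact permutation p = 0.1, the smallest that 3 libraries against 3 can give). Without GFPhi replicate 3 the GFPhi ratio was 0.192 (n = 2, exact permutation p = 0.1, again the smallest possible).

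The transcription factors parted. Stat5a was at 441, 422 and 401 CPM in GFPhi and at 652.5, 593 and 567.5 CPM in GFPlo libraries. All GFPhi values were lower, and the log2 difference was -0.52 (SE 0.08, edgeR adjusted p = 0.0111), and -0.48 without GFPhi replicate 3 (adjusted p = 0.0026). Its neighbour and close paralog Stat5b had 473, 460.5 and 478 CPM in GFPhi and 535, 511 and 472 CPM in GFPlo libraries, which overlap, with a log2 difference of -0.10 (95% interval -0.26 to 0.06), and -0.11 without GFPhi replicate 3. The ratio of Stat5a to Stat5b CPM ran from 0.839 to 0.932 in GFPhi and from 1.16 to 1.22 in GFPlo libraries, without overlap (two-sided exact permutation p = 0.1, the smallest possible, also without GFPhi replicate 3). This ratio is not scaled by exon length, so a value of 1 does not mark equal levels. Per kb of exon, mean Stat5a was below mean Stat5b in GFPhi (59.1 and 85.0 CPM) and in GFPlo (84.7 and 91.35 CPM). Of the 50-base stretches of Stat5a 8.52%, and of those of Stat5b 11%, also occur in other genes, the paralog among them. Reads from these stretches could be counted for another gene. Stat5a also overlaps an exon of Stat3 on the other strand, and Stat3 had a log2 difference of 0.32 (edgeR adjusted p = 0.0677), opposite in sign, and of 0.30 without GFPhi replicate 3 (adjusted p = 0.038).

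Most of these calls were lost when a library other than GFPhi replicate 3 was left out. Of all genes, 2.33% to 8% were called in those runs, beside 14.9% with all 6 libraries. Of the libraries left out in turn, Stat5a lost its call only without GFPlo replicate 2 (adjusted p = 0.0679, edgeR). Il2ra lost it without GFPlo replicate 1, 2 or 3 or GFPhi replicate 1 (0.0857, 0.14, 0.0968 and 0.0686), and Jak1 without any 1 of the 5 libraries other than GFPhi replicate 3 (0.0502 to 0.145). With the replicate number as a block, Il2ra (adjusted p = 0.0502, edgeR) and Jak1 (0.0872) were no longer called, while Stat5a still was. The cells came from 3 cohorts, and the labels do not tie a number to a cohort. Over every alternative run, the log2 differences stayed between 0.52 and 0.78 for Il2ra, 0.31 and 0.40 for Jak1 and -0.56 and -0.46 for Stat5a.

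The feedback inhibitors were highest in GFPhi replicate 3, and Cish and Socs3 were above the GFPlo libraries in the other GFPhi replicates too. Cish, whose product blocks STAT5 docking on activated receptors, was at 34.65, 23.6 and 103 CPM in GFPhi and at 18.3, 15.5 and 13.3 CPM in GFPlo libraries. It shares 9.35% of its 50-base stretches with other genes, among them Gm17040 and Gm17041, which overlap it on the other strand. The counts of Cish are uncertain to that extent. All GFPhi values were higher, but replicate 3 was 3.53 times the mean of replicates 1 and 2, and the log2 difference of 1.77 (SE 0.56) did not pass (edgeR adjusted p = 0.084). Without replicate 3 it was 0.90 (SE 0.19, adjusted p = 0.0101), so that a smaller difference passed with a smaller error. Socs3, which binds cytokine receptors and JAKs, had 33.2, 30.3 and 97.0 CPM in GFPhi and 27.0, 25.0 and 25.7 CPM in GFPlo libraries. Here too all GFPhi values were higher, with replicate 3 at 3.05 times the mean of the others, and the log2 difference was 1.05 (SE 0.46, edgeR adjusted p = 0.173) with replicate 3 and 0.30 (SE 0.08, adjusted p = 0.0192) without it. Socs1, which inhibits JAK kinase activity, had 25.8, 22.7 and 44.3 CPM in GFPhi and 18.6, 16.8 and 23.7 CPM in GFPlo libraries, which overlap, and its log2 difference did not pass with replicate 3 (0.65, adjusted p = 0.167) or without it (0.31, adjusted p = 0.148). A ratio above 2 between replicate 3 and the mean of replicates 1 and 2 was found for 6.28% of 11575 genes tested, Socs3 and Cish among them. Without replicate 3, 7 of the 10 members were called, 5 higher and 2 lower, beside 41.3% of 11745 genes, with 19.5% higher and 21.7% lower.

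Il7r lies on chromosome 15 (15:9505788-9530176, minus strand, GRCm38) and Il2ra on chromosome 2 (2:11642807-11693193, plus strand), and the genes of both chromosomes had a median below 0 in GFPhi against GFPlo. For GFPlo DN3 cells, the paper reports frequent trisomy of these chromosomes by probe analysis and their gain by exome sequencing. By genomic PCR it also reports more copies of the Il7r locus in GFPlo cells. The part of copy number in the values below was not tested. The 464 tested genes of chromosome 15 had a median log2 difference of -0.43, with 90.3% of them below 0, and Il7r lay a further -0.24 under that median, with 22.4% of the chromosome's genes lower still. Without GFPhi replicate 3 it lay -0.43 under the chromosome median. The 923 tested genes of chromosome 2 had a median of -0.18, and Il2ra stood 0.86 above it, higher than 96% of them, and 0.71 above it without GFPhi replicate 3, higher than 95.8%. With scaling factors taken only from genes outside these chromosomes, the same 3 members were called. In the Lmo2Tg and WT comparison described next, the chromosome 15 median was 0.13 and Il7r lay -0.85 below it, with 6.28% of the chromosome's genes lower.

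**Figure D2:**
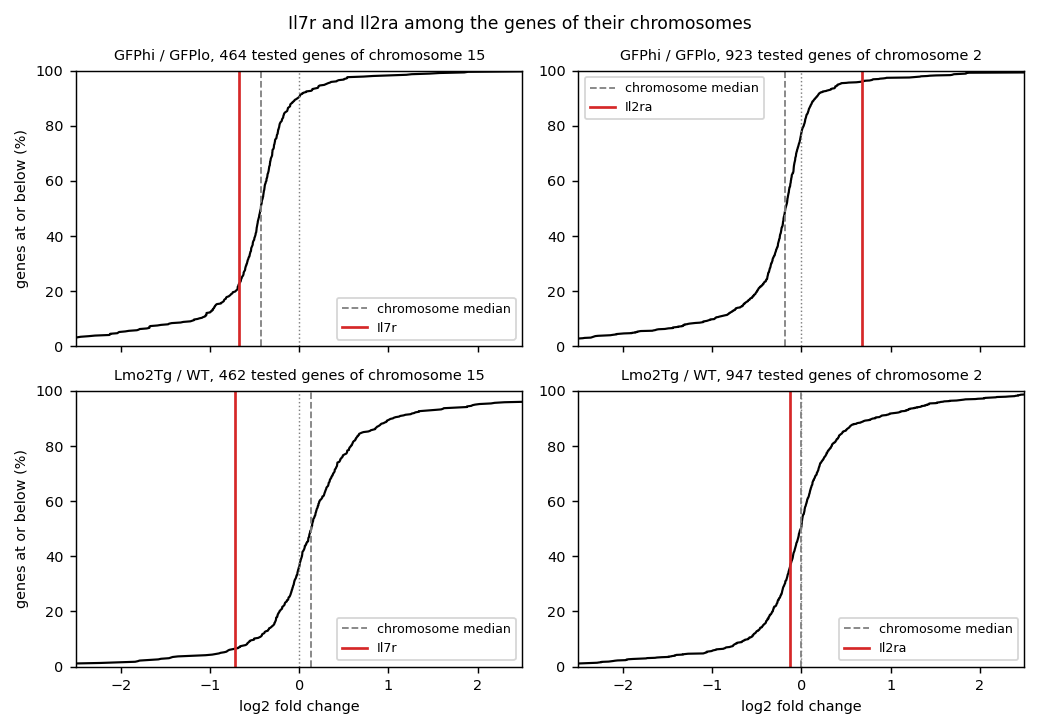
Cumulative share of the tested genes of chromosome 15 (left) and chromosome 2 (right) by log2 fold change (horizontal axes) in GFPhi over GFPlo (top) and Lmo2Tg over WT (bottom). The red lines mark Il7r and Il2ra and the dashed lines the chromosome medians, and in the top panels Il7r lies in the lower part of a chromosome whose median is below 0, while Il2ra lies at the upper end of its own.

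In Lmo2Tg DN3 cells, compared with WT cells, Il7r was lower, and Jak3, Stat5a and Stat5b were higher. The receptor chain and these signalling genes thus differed from WT in opposite directions. These 4 of the 10 members were called, beside 36.6% of the 11840 genes tested, of which 19.7% were higher and 16.9% lower. For 6 of the 10 members the libraries did not overlap, beside 60.9% of all genes. The 4 calls held without any 1 of the 9 libraries, and the differences were each less than 2-fold.

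Il7r was at 167, 160 and 163 CPM in WT and at 115 and 83.8 CPM in Lmo2Tg libraries a and b. Both Lmo2Tg libraries were lower, and the log2 difference was -0.72 (SE 0.15, edgeR adjusted p = 0.0046). Il2ra had 1597, 1617 and 1689 CPM in WT and 1411 and 1580 CPM in Lmo2Tg libraries, and Il2rg 90.1, 91.2 and 88.25 CPM in WT and 107 and 96.2 CPM in Lmo2Tg libraries. Neither passed, with log2 differences of -0.13 (95% interval -0.31 to 0.05) and 0.17 (95% interval 0.01 to 0.34, adjusted p = 0.0851, edgeR).

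Jak3 rose from 67.7, 67.9 and 64.05 CPM in WT to 102.5 and 85.9 CPM in Lmo2Tg libraries, with a log2 difference of 0.50 (SE 0.09, edgeR adjusted p = 0.0015). Its partner Jak1 had 463, 462 and 403 CPM in WT and 440 and 416.5 CPM in Lmo2Tg libraries, which overlap (log2 difference -0.05, 95% interval -0.25 to 0.16). The ratio of Jak3 to Jak1 CPM was 0.151 ± 0.0072 (SD, n = 3) in WT and 0.22 ± 0.0191 (SD, n = 2) in Lmo2Tg (two-sided exact permutation p = 0.1, the smallest that 2 libraries against 3 can give). Jak3 shares 7.21% of its 50-base stretches with other genes, among them Insl3, which overlaps it on its strand.

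Stat5a was at 253, 246.5 and 269 CPM in WT and at 462 and 393 CPM in Lmo2Tg libraries, a log2 difference of 0.74 (SE 0.09, edgeR adjusted p = 1.45e-04). Stat5b was at 325, 322 and 303 CPM in WT and at 489 and 495 CPM in Lmo2Tg libraries, a log2 difference of 0.64 (SE 0.07, edgeR adjusted p = 8.22e-05). Both genes were thus higher in each Lmo2Tg library than in any WT library. Their ratio was 0.811 ± 0.0676 (SD, n = 3) in WT and 0.869 ± 0.105 (SD, n = 2) in Lmo2Tg (two-sided exact permutation p = 0.5). Stat3, which overlaps Stat5a on the other strand, rose as well, by 0.78 on the log2 scale (adjusted p = 8.59e-05, edgeR), and its part in the Stat5a value was not tested.

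None of the inhibitors passed in this comparison. Socs1 had 32.0, 31.2 and 39.1 CPM in WT and 34.0 and 33.4 CPM in Lmo2Tg libraries, a log2 difference of -0.02 (95% interval -0.32 to 0.28). Socs3 was at 40.45, 50.4 and 46.8 CPM in WT and at 43.3 and 69.2 CPM in Lmo2Tg libraries, so that library b alone was above the WT range (log2 difference 0.29, 95% interval -0.15 to 0.74). Cish was at 8.89, 8.52 and 13.6 CPM in WT and at 10.3 and 5.95 CPM in Lmo2Tg libraries, a log2 difference of -0.36 (95% interval -0.94 to 0.23).

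**Figure D3:**
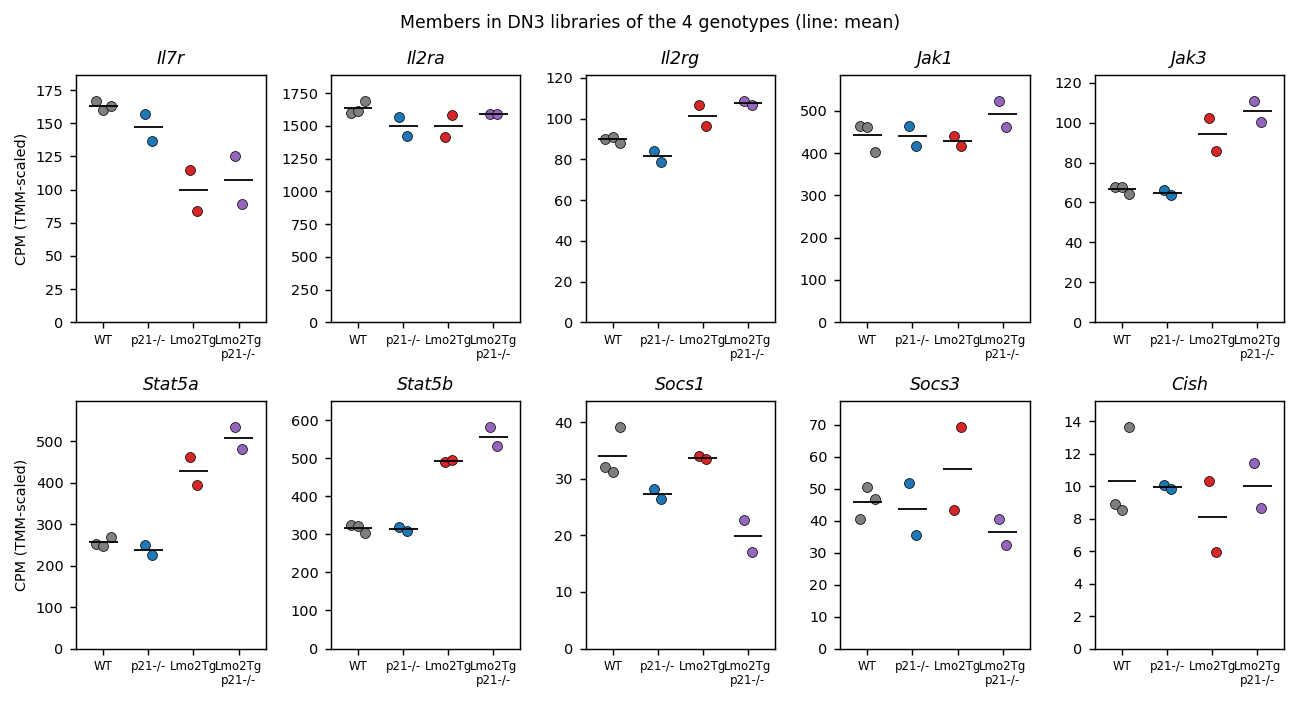
CPM of each member (vertical axes, from 0) in the WT (grey), p21-/- (blue), Lmo2Tg (red) and Lmo2Tg p21-/- (purple) libraries, with a line at each group's mean. Jak3, Stat5a and Stat5b are higher and Il7r is lower in the libraries that carry Lmo2Tg, and Socs1 is lowest in the Lmo2Tg p21-/- libraries, at 22.8 and 17.0 CPM.

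Loss of p21 on the WT background left every member short of the threshold. None of the 10 was called by edgeR, by DESeq2 or by limma-voom, beside 0.11% of 11840 genes in edgeR's test, and 1 member, Socs1, had an unadjusted p under 0.05. Socs1 was at 28.1 and 26.3 CPM in p21-/- libraries, both below the WT range, with a log2 difference of -0.32 (95% interval -0.63 to -0.02). Il7r had 157 and 137 CPM in p21-/- libraries, a log2 difference of -0.15 (95% interval -0.48 to 0.18). The differences of Stat5a, Stat5b, Jak1 and Jak3 were between -0.11 and -0.01, with 95% intervals between -0.31 and 0.20. Non-overlapping libraries were found for 4 of the 10 members, all lower in p21-/-, beside 19.5% of all genes.

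In Lmo2Tg cells, loss of p21 was accompanied by lower Socs1. It was at 34.0 and 33.4 CPM in Lmo2Tg and at 22.8 and 17.0 CPM in Lmo2Tg p21-/- libraries, without overlap, and the log2 difference was -0.77 (SE 0.15, edgeR adjusted p = 0.0174). This was the call of 1 of the 10 members, beside 6.94% of 11840 genes called and 3.59% called lower. The call was lost without Lmo2Tg library b (adjusted p = 0.0638, edgeR), without Lmo2Tg p21-/- replicate 2 (0.0762) and with the spread taken from these 4 libraries alone (0.0526). Socs3 fell short, with 43.3 and 69.2 CPM in Lmo2Tg and 40.6 and 32.4 CPM in Lmo2Tg p21-/- libraries (log2 difference -0.63, SE 0.23, edgeR adjusted p = 0.118). It passed without Lmo2Tg library a (-0.93, adjusted p = 0.038, edgeR) and in DESeq2 over all libraries (adjusted p = 0.0391). Of the Lmo2Tg libraries, a lay close to the Lmo2Tg p21-/- libraries and b well above them.

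The members called higher in Lmo2Tg cells were not lower without p21. Stat5a was at 533 and 481 CPM and Stat5b at 581 and 532 CPM in Lmo2Tg p21-/- libraries, above both Lmo2Tg libraries, with log2 differences of 0.25 (edgeR adjusted p = 0.16) and 0.18 (adjusted p = 0.193) that did not pass. Jak3 had 111 and 100.5 CPM, overlapping the Lmo2Tg range, and Il7r 125 and 89.1 CPM, overlapping it too (log2 difference 0.11, 95% interval -0.26 to 0.48). The libraries of the groups did not overlap for 7 of the 10 members, beside 54.8% of all genes. Whether the effect of p21 loss differed between Lmo2Tg and WT cells was tested as an interaction, in which none of the 10 members was called by edgeR, DESeq2 or limma-voom, beside 1.38% of all genes in edgeR's test. Stat5a alone had an unadjusted p under 0.05 (interaction 0.35, edgeR adjusted p = 0.207). For Socs1 the interaction was -0.44 (95% interval -0.89 to 0.01), so its fall was not shown to depend on the transgene. The comparison of Lmo2Tg p21-/- with Lmo2Tg shares the Lmo2Tg libraries with that of Lmo2Tg with WT, and the latter shares the WT libraries with that of p21-/- with WT.

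**Figure D4:**
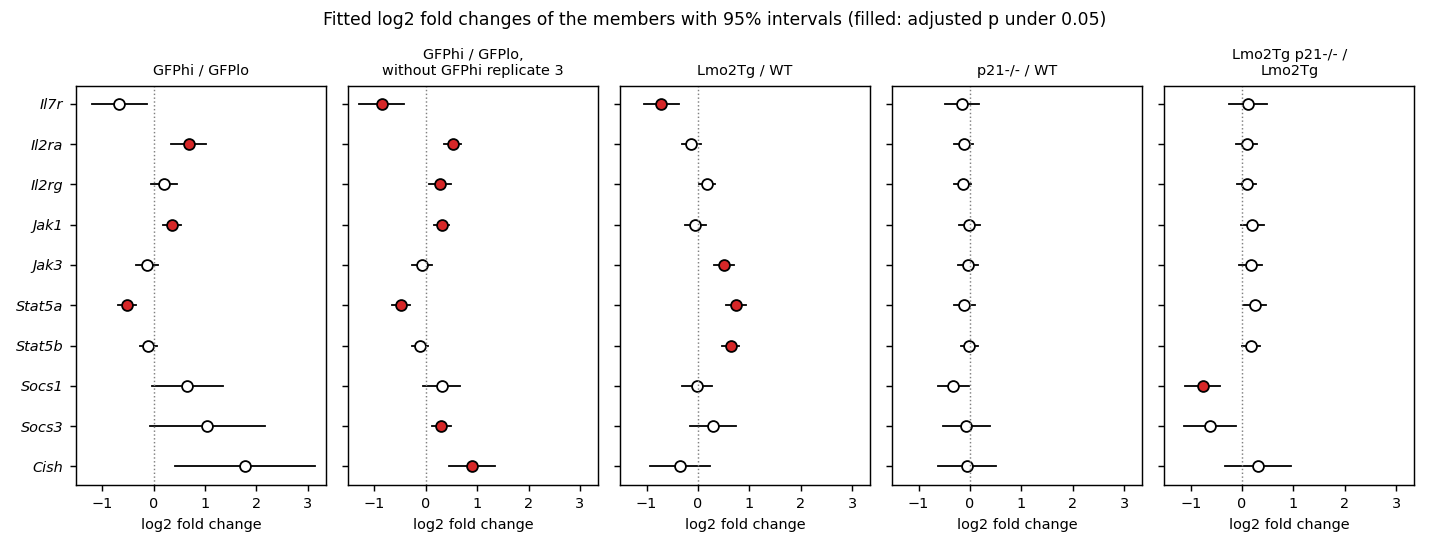
Fitted log2 fold changes of the 10 members (points) with 95% intervals (lines) in each comparison, from edgeR's quasi-likelihood fit, with filled points for an adjusted p under 0.05. In GFPhi over GFPlo the intervals of Socs1, Socs3 and Cish are wide and narrow once GFPhi replicate 3 is left out, and the p21-/- over WT panel holds no filled point.

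Beside the members, 61 other genes of the pathway were listed, of which 55 were tested. In Lmo2Tg against WT, 25 of the 55 (45.5%) were called, 18 higher and 7 lower, beside 36.6% of all genes, and in GFPhi against GFPlo 7 (12.7%) were called, 6 higher and 1 lower, beside 14.9%. Without GFPhi replicate 3 the latter count was 27, with 20 higher and 7 lower, beside 41.3% of all genes. It was 0 without GFPlo replicate 2 or 3, beside 2.33% and 3.8% of all genes, and 2 without GFPhi replicate 1, beside 5.77%. Without GFPlo replicate 1 or GFPhi replicate 2 it was 4, beside 7.09% and 8%. No listed gene was called in p21-/- against WT by edgeR, DESeq2 or limma-voom, with 3 at an unadjusted p under 0.05 in edgeR's test, and 11 were called in Lmo2Tg p21-/- against Lmo2Tg, 7 higher and 4 lower, beside 6.94% of all genes. Il7, the ligand itself, was at no more than 0.117 CPM in any library and was not tested, nor were Il2, Il4, Il9, Il21 and Il13ra1.

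The other receptors of the family changed on their own lines. Il4ra, the IL-4 receptor chain that pairs with the gamma chain, rose from between 10.46 and 13.6 CPM in WT to 55.9 and 39.9 CPM in Lmo2Tg libraries (log2 difference 2.01, SE 0.23, edgeR adjusted p = 7.86e-05). Il9r, which also pairs with the gamma chain, rose from between 11.7 and 13.8 CPM to 59.3 and 32.55 CPM (log2 difference 1.87, edgeR adjusted p = 1.03e-04). These were the 2 of 6 tested receptors called there, a share near the 36.6% of all genes. In GFPhi cells Il21r, the IL-21 receptor, had 108, 103 and 82.35 CPM beside 50.3 to 68.2 CPM in GFPlo libraries (log2 difference 0.74, edgeR adjusted p = 0.0273, and 0.86 without GFPhi replicate 3). GFPhi replicate 3 went its own way for Il9r, with 21.8 CPM beside 90.9 and 106 CPM in GFPhi replicates 1 and 2 and 76.8 to 89.2 CPM in GFPlo libraries, and for Il4ra, with 109 CPM beside 44.1 and 38.1 CPM.

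Of the other kinases and STATs, Jak2 and Stat3 rose in Lmo2Tg cells (log2 differences 0.76 and 0.78, edgeR adjusted p = 1.08e-04 and 8.59e-05). In Lmo2Tg p21-/- against Lmo2Tg cells, Stat4, Stat2 and Stat3 rose, by 0.63, 0.49 and 0.47, with edgeR adjusted p from 0.0098 to 0.035, beside 3.35% of all genes called higher. Stat4, which transmits the IL-12 signal, was at 34.3 and 28.9 CPM in Lmo2Tg and at 52.5 and 45.8 CPM in Lmo2Tg p21-/- libraries. Of the 5 other SOCS genes, 3 were called in Lmo2Tg cells, 2 higher and 1 lower, beside 36.6% of all genes. Socs2 rose from between 9.99 and 15 CPM in WT to 45.3 and 26.7 CPM (log2 difference 1.61, edgeR adjusted p = 0.0011). Socs6 rose by 0.41 and Socs4 fell by 0.32 (edgeR adjusted p = 0.0090 and 0.0277). Of 11 other negative regulators, Cblb, a ubiquitin ligase that restrains T-cell activation, fell both in GFPhi cells (by 0.45, edgeR adjusted p = 0.0271, and by 0.50 without GFPhi replicate 3) and in Lmo2Tg cells (by 0.70, adjusted p = 4.71e-05). Cbl, on the same list, rose in GFPhi cells (by 0.35, edgeR adjusted p = 0.0124, and by 0.37 without GFPhi replicate 3). In GFPhi cells 2 of the 11 (18.2%) were thus called, 1 higher and 1 lower, beside 14.9% of all genes. In Lmo2Tg cells 2 were called, both lower, beside 36.6%.

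Genes known to respond to IL-7 or STAT5 changed in both directions in Lmo2Tg cells, where 11 of the 14 were called, 8 higher and 3 lower, beside 19.7% and 16.9% of all genes, with a median log2 difference of 0.48 beside -0.01 for all genes. The kinase gene Pim1 rose from 84.2 to 89.7 CPM in WT to 245 and 262 CPM in Lmo2Tg libraries (log2 difference 1.56, edgeR adjusted p = 2.68e-05), and the survival gene Mcl1 from between 235 and 294 CPM to 535 and 524 CPM (0.97, adjusted p = 8.45e-05). Pim2, Pim3, Bcl2l1, Bcl6, Id2 and Slc2a1 rose with them, by 0.39 to 1.37. Against this, Ccnd2, which encodes cyclin D2, fell from between 300 and 324 CPM to 156 and 124 CPM (fell by 1.14, adjusted p = 3.02e-04, edgeR), and Myc and Lifr fell by 0.88 and 0.84. Bcl2, a survival gene that IL-7 induces in T cells, had a log2 difference of -0.01 there. In GFPhi cells 2 of the 14 were called, both higher, beside 14.9% of all genes, and 9 without GFPhi replicate 3, beside 41.3%. Bcl2, one of the 2, was at 317, 260 and 418 CPM beside 116 to 149 CPM in GFPlo libraries, with a log2 difference of 1.36 (SE 0.19, edgeR adjusted p = 0.0104), and 1.16 without GFPhi replicate 3.

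When p21 was lost in Lmo2Tg cells, 5 of the 14 responsive genes were called, 4 lower and 1 higher, beside 3.59% and 3.35% of all genes. Mcl1 fell to 273 and 276 CPM and Pim3 from 53.2 and 51.4 CPM to 28.3 and 29.65 CPM, the former within and the latter below the range of the WT libraries. Id2, an inhibitor of E proteins, fell from 37.7 and 31.05 CPM to 9.28 and 8.57 CPM (fell by 1.95 on the log2 scale, edgeR adjusted p = 0.0056), and the glucose transporter gene Slc2a1 fell by 0.78. Bcl6 rose further, from 9.84 and 13.0 CPM to 24.3 and 21.01 CPM (0.99, adjusted p = 0.0184, edgeR). The list is therefore mixed in direction in both comparisons. With all libraries, 11 listed genes were called in this comparison. Fewer were called without Lmo2Tg library b or without either Lmo2Tg p21-/- library, and so were fewer of all genes. Each of these fits leaves 1 library in a group.

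**Figure D5:**
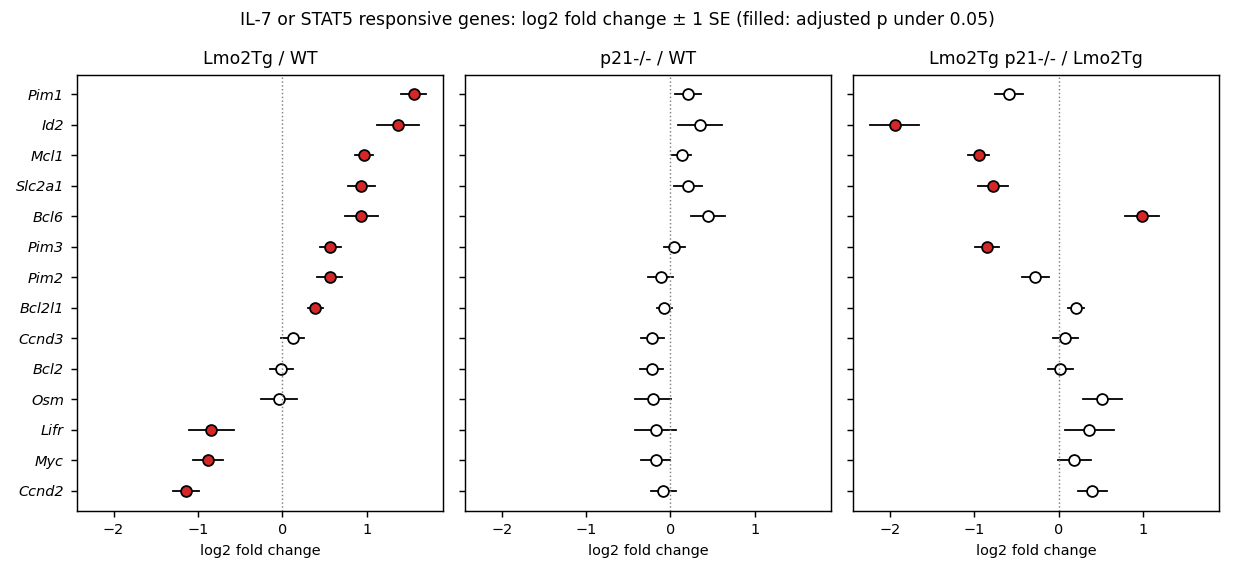
Log2 fold changes (points) ± 1 SE (lines) of 14 genes known to respond to IL-7 or STAT5 in the genotype comparisons, with filled points for an adjusted p under 0.05 in edgeR's quasi-likelihood test. Pim1, Id2 and Mcl1 lead the rises in Lmo2Tg over WT, Id2, Mcl1, Pim3 and Slc2a1 fall and Bcl6 rises in Lmo2Tg p21-/- over Lmo2Tg, and no point is filled in p21-/- over WT.

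Among 10 regulators of Il7r, 3 were called in Lmo2Tg against WT, all higher, beside 36.6% of all genes called, so the share was no higher than the background. Spi1, which encodes PU.1, rose from between 2.00 and 3.56 CPM to 11.02 and 12.9 CPM (log2 difference 2.05, edgeR adjusted p = 6.63e-05), Runx3 by 1.19 and Foxo3 by 0.61. Foxo1, Gfi1, Ets1 and Runx1 had log2 differences between -0.10 and 0.09 and did not pass. In GFPhi against GFPlo none of the 10 was called by edgeR, DESeq2 or limma-voom, and none had an unadjusted p under 0.05 in edgeR's test. Foxo1 was at 57.95 and 57.8 CPM in GFPhi replicates 1 and 2, 33.3 in replicate 3 and 32.4 to 37.4 CPM in GFPlo libraries, and it passed without replicate 3 (0.74, adjusted p = 5.88e-04, edgeR), when 2 of the 10 were called beside 41.3% of all genes.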

How the data were processed

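Each experiment has its own table of raw read counts by gene, as the authors deposited them, with no normalization. The submitters' processing notes name STAR 2.4.2a, featureCounts and limma and the mouse build mm10, and whether reads were counted by strand is not stated in the sources used here. Total counts are given with the results. Conditions came from the sample labels. Of 16 samples 15 have a usable column, 1 further column could not be assigned to a sample and was not used, and p-values measure only the spread between pooled libraries. The members and lists were chosen with earlier results of these data known. All 10 members are named, and listed genes are named where they were called, largest first, or with their values.

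Genes with low counts were left out by filterByExpr (minimum count 10, minimum total 15), counts were scaled by TMM, and edgeR 4.0.16 (R 4.3.3) fitted its quasi-likelihood model, with 6 libraries for GFPhi against GFPlo and 9 for the genotypes. Standard errors were taken from the F statistic. The study used limma, and a count test was run here because the files hold counts. Gene positions came from GENCODE M21 (98.2% of identifiers matched), and shared sequence was checked for the members only. Alternatives were RLE factors, TMM from genes outside chromosomes 2 and 15, DESeq2 1.42.0, limma-voom (limma 3.58.1), other filters and thresholds, a replicate block, the libraries of the groups compared alone and each library left out. The fits were tested on simulated data. Figures were drawn with matplotlib 3.10.9. The values of 2 listed genes are not reported here, and a pathway gene among them stays in the counts over its list.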

Additional observations from a re-analysis of the deposited data

Results flagged for a closer look

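The interaction test of edgeR's quasi-likelihood fit called 4 of the 55 tested genes of the pathway lists (7.27%), beside 1.38% of all genes. For these 4 the effect of p21 loss differed between Lmo2Tg and WT cells. The interaction on the log2 scale was -2.30 for Id2 (adjusted p = 0.03, edgeR), -1.08 for Mcl1 (0.0244), -0.90 for Pim3 (0.0489) and 0.71 for Stat4 (0.0489). Id2 was at 10.2 to 16.6 CPM in WT, 11.5 and 22.4 in p21-/-, 37.7 and 31.05 in Lmo2Tg and 9.28 and 8.57 in Lmo2Tg p21-/- libraries. Mcl1 was at 265 and 330 CPM in p21-/- libraries beside 235 to 294 in WT, so loss of p21 went with a difference of 0.13 there and of -0.95 in Lmo2Tg cells. All 4 calls were lost without WT replicate 1 or WT replicate 3, when 0% of all genes were called. Without WT replicate 2, 2 listed genes were called, beside 0.542% of all genes. Calls were also lost without p21-/- replicate 2, Lmo2Tg library a or either Lmo2Tg p21-/- library, fits that leave 1 library in a group. DESeq2 called 8 listed genes, beside 2.1% of all 22114 genes, and limma-voom 2, beside 0.921% of the genes tested. With groups of 2 and 3 libraries, single outlying libraries were not tested.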

How the results depend on the processing

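The fold changes of the members kept their direction and their side of the threshold in 820 of 870 alternative values, and no called member reversed. That count pools called and uncalled values. Of 15 alternatives for GFPhi against GFPlo, the call was kept in 8 for Il2ra, 7 for Jak1 and 12 for Stat5a. For Socs1 in Lmo2Tg p21-/- against Lmo2Tg it was kept in 13 of 18. Each call in Lmo2Tg against WT was kept in 17 of 18. In GFPhi against GFPlo 0 members and 0 other pathway genes were called at an adjusted p under 0.01, 0 and 1 with a 2-fold limit, and 5 and 16 by DESeq2. Of all genes, 3.48%, 6.31% and 13% were called in these runs. Each library left out in turn gave 0 (without GFPlo replicate 2) to 7 members (without GFPhi replicate 3) and 0 to 27 other genes. The share of all genes called ran from 2.33% to 41.3% in the same 2 runs. Same-numbered GFPhi and GFPlo libraries deviated together by correlations of 0.2, -0.152 and 0.0885, and the labels do not say that a number marks a cohort, so they were not paired. The replicate block left 1 member (Stat5a, with Il2ra and Jak1 lost) and 2 other genes called, beside 4.28% of all genes. In p21-/- against WT the block called 0 members, beside 0.298% of all genes, and with it the fold change of Cish was 0.19 in place of -0.06. No block could be fitted with Lmo2Tg, whose columns carry no number of a single sample. In Lmo2Tg against WT the 2-fold limit left 0 members and 9 other genes, beside 12% of all genes. In Lmo2Tg p21-/- against Lmo2Tg, an adjusted p under 0.01 left 0 members and 4 other genes, beside 1.45% of all genes. The 2-fold limit left 0 and 1, beside 1.88%, and only these groups' libraries 0 and 6, beside 3.55%. DESeq2 and no filter gave 2 members each, beside 4.68% and 7.39%. The counts also changed with libraries left out, though some of those fits leave 1 library in a group. For the interaction of p21 loss and Lmo2 transgene, other pathway genes called were 0 at 0.01, 2 with the 2-fold limit, 8 by DESeq2, 2 by limma-voom and 10 without a filter. The shares of all genes were 0%, 0.802%, 2.1%, 0.921% and 3.24%. This count also changed with libraries left out, though some of those fits leave 1 library in a group. With a library left out, fold changes that had not been called ran across 0. On the log2 scale they ran, for Lmo2Tg against WT, from -0.076 to 0.0927 (Socs1) and -0.0873 to 0.60 (Socs3), for p21-/- against WT from -0.18 to 0.19 (Cish), -0.10 to 0.0666 (Jak1), -0.38 to 0.18 (Socs3) and -0.0471 to 0.0080 (Stat5b), for Lmo2Tg p21-/- against Lmo2Tg from -0.041 to 0.74 (Cish) and -0.17 to 0.35 (Il7r), and for the interaction from -0.019 to 0.50 (Il7r). The cause of these changes was not tested.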

Other observations

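Over the 9 genotype libraries, and among 8752 other genes with a mean of at least 10 CPM, the genes whose log2 CPM followed Il7r most closely were Med22 (Pearson r = 0.987), Slc9a9, Tnfrsf1b, Tbc1d14 and Tmem180 (0.977). Those nearest Stat5b were Esyt1 (0.997), Rasa3, Ski, Angpt1 and Pde7a (0.994), and those nearest Cish were Tgtp1 (0.937), Tbp, Kbtbd4, Tm2d3 and Bcat2 (0.887). A correlation above 0.9 was found for 844 genes with Stat5b, 119 with Il7r and 3 with Cish, so the pattern of Stat5b, which separates the libraries with Lmo2Tg from those without it, was shared by many genes and that of Cish by few. The libraries share genotypes and a scaling, and these values describe them only. Of the 5 genes nearest Il7r, Stat5b and Cish, 1, 3 and 0 were also among the nearest 5 by Spearman's correlation. Tmem180 had the same rank order as Il7r over the 9 libraries (Spearman 1) and a Pearson correlation of 0.725 with it over the 6 label-retention libraries, where Slc9a9 had -0.778.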
